A study of Mus musculus with 12 samples.

Results

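The genes described here are 33 markers of the other cells of the brain: neurons, astrocytes, the oligodendrocyte lineage, endothelial cells and the choroid plexus. They are the rows of the count table that carry these symbols, 33 of 23337, and all 33 were found. They were read in 12 RNA-seq libraries of sorted microglia, to see in which libraries the RNA of neighbouring cells was present and in which it was not detected. The mice were wild type male C57BL/6N animals at postnatal day 60, with no treatment, and 3 libraries came from each of cortex, hippocampus, striatum and cerebellum. Each library held 3000 live cells sorted as TMEM119+, CD11b+ and CD45 low, and dissected regions of 3 to 5 mice were combined before sorting, so no library is 1 animal. The labels do not say whether the 3 libraries of a region came from separate pools, so p-values measure the spread between libraries, which may be technical.

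Microglia are the resident macrophages of the brain, and TMEM119 is a surface protein that marks them. A sorted microglia sample can also hold RNA from other sources: whole cells caught in the gate, debris and synapses stuck to or taken up by microglia, and free RNA in the suspension. The markers differ in where they are made. Some belong to all neurons, others mainly to certain neurons, such as those of a single region. Transthyretin (Ttr) is made in the brain mainly by the choroid plexus, the epithelium that lines parts of the ventricles and secretes cerebrospinal fluid. In bulk RNA, fewer cells of a type and less RNA per cell cannot be told apart.

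Depth was lowest in striatum 2 (6479839 counts in all) and highest in cortex 2 (14833340). Where a gene has no count, up to 3 counts are allowed for, or 0.194 CPM (counts per 1e+06 counts, with TMM-scaled library sizes) at the depth of cortex 2 and 0.485 CPM at that of striatum 2. Such limits and the intervals below cover counting error only, since these reads carry no molecular identifiers. Striatum 2 stood apart: 986 genes (9.84%) of the 10018 whose mean count was 50 or more were missing there, against 4 to 44 in each other library, so a 0 in striatum 2 says less than a 0 elsewhere. It is given apart below. The labelled cell type held in every library: all 17 microglia genes on the list used as a check, Tmem119, P2ry12, Cx3cr1 and Csf1r among them, were above 0 in all 12 libraries, and they summed to between 42372 and 61131 CPM. In contrast, the 33 markers together summed to 89.1 CPM in hippocampus 1, the lowest, to 490 CPM in cerebellum 3, and to 922 CPM in striatum 2.

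The 250 bases upstream of the annotated start are shown for 4 members that span the range of the results: Slc1a3, read in every library; Kdr, read mainly in cortex and cerebellum; Cldn5, with a single count; and Gabra6, with none. The sequences are RefSeq's for GRCm38.p6, which listed 22 of the 33 members. They lie at chr15:8710808-8711057 on the minus strand (Slc1a3), chr5:75978456-75978705 on the minus strand (Kdr), chr16:18776597-18776846 on the plus strand (Cldn5) and chr11:42321073-42321322 on the minus strand (Gabra6).
Slc1a3: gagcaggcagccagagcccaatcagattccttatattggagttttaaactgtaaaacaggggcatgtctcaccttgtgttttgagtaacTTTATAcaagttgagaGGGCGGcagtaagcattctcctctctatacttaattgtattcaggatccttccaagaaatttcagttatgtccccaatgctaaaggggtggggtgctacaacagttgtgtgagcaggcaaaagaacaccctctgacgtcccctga
Kdr: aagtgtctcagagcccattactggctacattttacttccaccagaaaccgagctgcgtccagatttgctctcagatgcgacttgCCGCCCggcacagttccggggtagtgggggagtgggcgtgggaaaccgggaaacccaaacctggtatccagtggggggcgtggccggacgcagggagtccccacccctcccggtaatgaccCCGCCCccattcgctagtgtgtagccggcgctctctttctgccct
Cldn5: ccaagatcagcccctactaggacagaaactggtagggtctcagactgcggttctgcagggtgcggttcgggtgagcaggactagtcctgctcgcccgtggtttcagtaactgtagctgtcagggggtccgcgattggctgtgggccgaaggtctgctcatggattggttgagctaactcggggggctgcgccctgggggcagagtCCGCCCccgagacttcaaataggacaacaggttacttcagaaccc
Gabra6: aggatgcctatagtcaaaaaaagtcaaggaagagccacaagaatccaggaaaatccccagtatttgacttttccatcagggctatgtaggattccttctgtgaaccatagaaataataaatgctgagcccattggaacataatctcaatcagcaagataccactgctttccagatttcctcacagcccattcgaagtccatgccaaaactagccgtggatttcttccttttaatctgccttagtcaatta
Capitals mark matches, on either strand, to the letters GGGCGG (the core bound by SP1) and TATAAA (the TATA box). GGGCGG occurred in 32.7% and TATAAA in 12.4% of the 32851 upstream sequences of the same length. Slc1a3 held 1 of each, Kdr 2 GGGCGG matches, Cldn5 1 GGGCGG match and Gabra6 neither. The letters GAGGAAGT, a site of the myeloid factor PU.1 that 2.44% of upstream sequences held, occurred upstream of none of the 22 members, which says only that these letters are not in this window.

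Most markers were read at trace levels and in some libraries only. Of the 33, 28 reached at least 10 counts in at least 1 library, 5 stayed under 10 counts in all of them, and 2 of those 5 had no count at all. Only 4 members were above 0 in all 12 libraries: Meg3, Prox1, Slc1a3 and Mbp. With Pecam1, these are also the 5 members with at least 10 counts in every library other than striatum 2. By library, the number of members with a count ran from 13 in hippocampus 1 and 15 in striatum 2 to 29 in hippocampus 2. Hippocampus 2 held many markers at low levels (201 CPM in all), whereas striatum 2 held few markers at high levels. Of the 31 members with a count, 6 had their highest level in cerebellum 2, 5 in striatum 2 (the 5 choroid plexus members), 4 in cerebellum 3 and none in hippocampus 1.

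**Figure D1:**
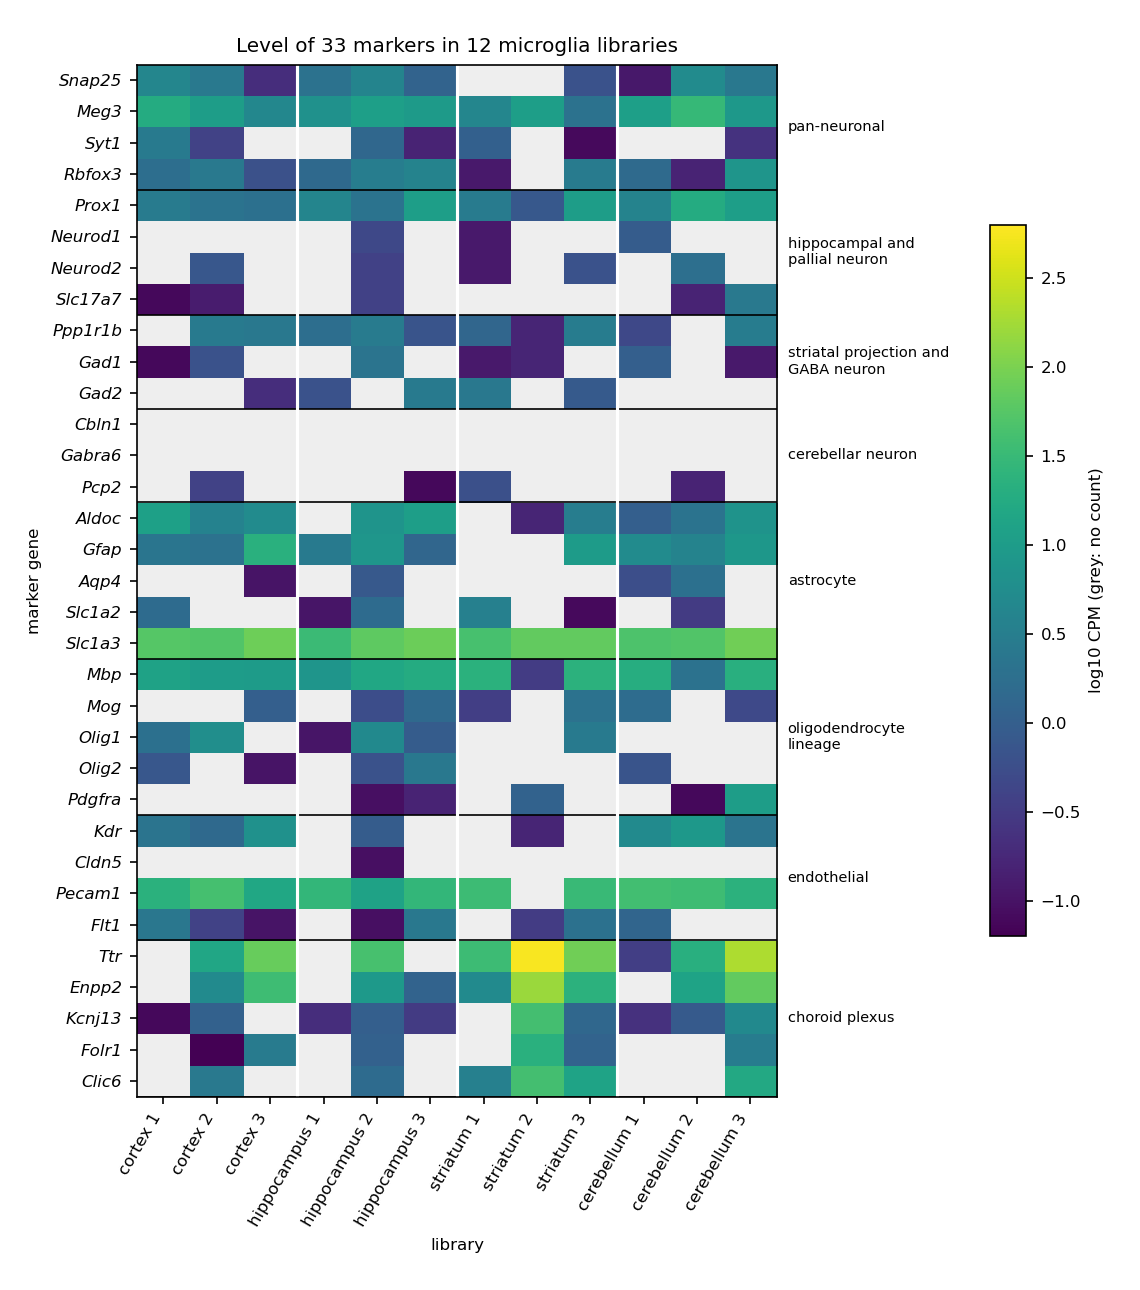
Level of each of the 33 markers (rows, grouped by cell class) in each of the 12 libraries (columns, ordered by region) as log10 CPM, with grey for no count. Slc1a3 is filled in every column, Cbln1 and Gabra6 in none, and the choroid plexus rows are brightest in striatum 2.

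Per length, the markers lay far below the microglia genes. CPM per kilobase of exon allow genes to be compared, and the median of the 12 libraries on this scale was 125 for Sall1, the lowest of the 17 microglia genes, and 3413 for C1qb, the highest. The highest marker medians were 23.8 for Ttr, 13.7 for Slc1a3 and 6.85 for Pecam1. Next came Enpp2 at 2.10, Mbp at 1.73 and Aldoc at 1.15, and every other marker had a median under 1 CPM per kilobase. In single libraries Ttr reached 489 (striatum 2), above the lowest library of Sall1 (57.2). No other marker reached that value in any library, the next being Enpp2 with 47.3 in striatum 2.

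**Figure D2:**
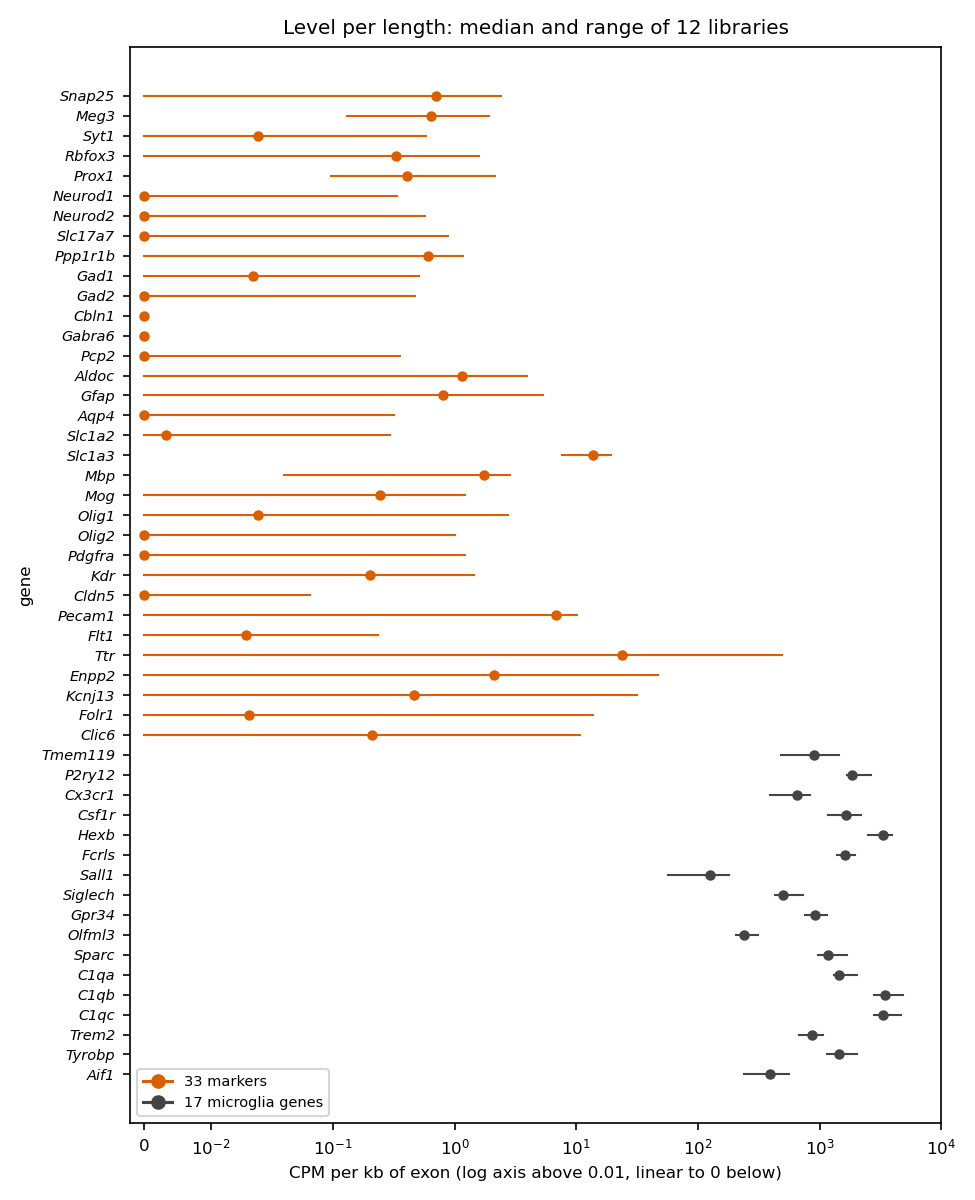
CPM per kilobase of exon for the 33 markers (orange) and 17 microglia genes (grey). Points are medians and lines run from the lowest to the highest of the 12 libraries, on an axis that is logarithmic above 0.01; the marker medians end at 23.8 (Ttr), below the lowest microglia gene median of 125 (Sall1).

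Of the 33 members, 21 passed the filter on low counts and were tested among 12217 genes, both over the 4 regions and for each region against the mean of the other 3. No member passed in any of these 5 comparisons (edgeR quasi-likelihood test, Benjamini-Hochberg adjusted over all genes tested), and nor did any other gene (0%). At an unadjusted p under 0.05, Kdr alone of the 21 differed over the 4 regions, where 1.82% of all genes did (limma-voom 2 members). For cortex the count was 1 of 21 (Kdr) against 2.4% of all genes, for hippocampus 0 against 1.58%, for striatum 3 (Clic6, Kcnj13 and Kdr) against 6.43%, and for cerebellum 2 (Kdr and Olig1) against 1.07%. At the same unadjusted threshold limma-voom had 1, 1, 4 and 1 members for cortex, hippocampus, striatum and cerebellum. DESeq2 and limma-voom called no member in any of the 5 comparisons. Without striatum 2, when 23 members passed the filter, the counts were 2 over the 4 regions (1.94% of all genes), 2 for cortex (3.4%), 0 for hippocampus (3.05%), 3 for striatum (Gad2, Kdr and Meg3; 2.59%) and 3 for cerebellum (Kdr, Meg3 and Olig1; 2.18%), and none passed. The spread is given as a description, with the sparsest members already removed by the filter. The median coefficient of variation of the CPM over the 12 libraries was 1.17 for the 21 tested members and 0.368 for all tested genes. A library at 0 was found for 17 of the 21 members (81.0%), against 23.4% of all tested genes. The members were also lower in level, with a median log2 mean CPM of 2.07 against 5.08 for all tested genes. Genes of a like level were not compared, so neither contrast is a trait of the markers apart from their level.

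Neuronal markers common to all regions were present in all 4 regions at a few CPM. Snap25, a SNARE protein of synaptic vesicle release, stood at 4.25, 2.59 and 0.209 CPM in the cortical libraries, at 2.0, 4.06 and 1.16 in the hippocampal and at 0.116, 5.39 and 2.51 in the cerebellar ones. In striatum it had no count in libraries 1 and 2 and 0.633 CPM in striatum 3. Striatum thus held the 2 libraries without Snap25, although cortex 3 and cerebellum 1 were lower than striatum 3 (log2 difference of striatum from the other 3 regions −3.37, SE 1.65, edgeR adjusted p = 0.745). Without striatum 2 the difference was −2.87 (SE 1.78). Leaving out any other library gave −7.71 to −2.84, the first without striatum 3, which leaves striatum with no count, so that value is no measure of size.

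Meg3, a long noncoding RNA of the imprinted locus on chromosome 12 that is abundant in neurons, was read everywhere. Its levels were 18.2, 10.5 and 4.49 CPM in the cortical libraries, 6.74, 11.4 and 9.63 in the hippocampal, 4.26, 11.1 and 2.06 in the striatal and 11.2, 30.4 and 8.62 in the cerebellar ones. The regions overlapped. Striatum 1 and striatum 3 were the 2 lowest of the 12 libraries, and striatum 2 was the highest of its region: without it, striatum differed from the other regions by −1.92 (SE 0.68, unadjusted p = 0.0142, edgeR adjusted p = 1.00), against −1.05 (SE 0.68) with it and −0.64 without striatum 3. Exons of Meg3 overlap those of Gm26906 on the opposite strand over 7.83% of their length, and reads of the 2 cannot be told apart in an unstranded library.

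Syt1, the calcium sensor of vesicle release, was more sporadic. Cortex 1 held 2.81 CPM, hippocampus 2 held 1.38 and striatum 1 held 1.06, while 4 other libraries held 0.388 CPM or less and 5 had no count. Rbfox3, which encodes the neuronal nuclear antigen NeuN, was above 0 in 11 libraries. It reached 1.75, 2.59 and 0.626 CPM in the cortical libraries, 1.47, 3.14 and 3.88 in the hippocampal, 0.118, 0 and 2.93 in the striatal and 1.50, 0.156 and 7.78 in the cerebellar ones. Snap25 and Rbfox3 thus peaked in different cerebellum libraries. Among 15 other pan-neuronal genes in the table, 11 were tested and none passed (edgeR). By smallest p, the leading genes were Syn1, read in 6 libraries at 0.152 to 4.26 CPM, and Stmn2, at up to 13.6 CPM (hippocampus 2) with no count in striatum 2.

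Prox1 and Ppp1r1b, listed here for hippocampal and striatal neurons, were read in all 4 regions. Neither gene is taken as limited to the neurons of its region, so counts elsewhere do not name a source. Prox1, a homeobox factor of dentate granule neurons in the hippocampus, was at 4.21, 2.12 and 10.9 CPM in hippocampus 1 to 3. Levels were 2.88, 2.13 and 1.88 CPM in the cortical libraries, 2.96, 0.808 and 10.8 in the striatal and 3.82, 18.1 and 10.9 in the cerebellar ones. The order of the means was cerebellum (10.9 ± 7.15 CPM, SD, n = 3), hippocampus (5.74 ± 4.57), striatum (4.84 ± 5.24) and cortex (2.30 ± 0.523), and neighbours in that order did not differ beyond their spread. The hippocampal value was 0.21 above the others on the log2 scale (SE 0.80, edgeR adjusted p = 1.00), with a 95% interval from −1.52 to 1.93. It turned to −0.65 without hippocampus 3. Cerebellum differed by 1.45 (SE 0.75, edgeR adjusted p = 1.00), and by 0.87 without cerebellum 2.

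Ppp1r1b encodes DARPP-32, a phosphatase inhibitor that marks the projection neurons of the striatum. Striatum 1, 2 and 3 held 1.30, 0.162 and 3.01 CPM. The ranges of the regions overlapped, with 0, 2.72 and 2.51 CPM in the cortical libraries, 1.79, 2.86 and 0.699 in the hippocampal and 0.463, 0 and 2.99 in the cerebellar ones. Striatum differed from the mean of the other 3 regions by −0.02 (SE 1.50, 95% interval −3.27 to 3.24, edgeR adjusted p = 1.00) and by 0.50 without striatum 2, so the direction is not defined, and the interval leaves room for a large difference either way. Other genes of these neurons were sparse or missing. Drd2 and Gpr6 had no count in any library, and Adora2a had 14 counts in hippocampus 2 alone.

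Gad1 and Gad2 encode the enzymes that make the transmitter GABA. Gad1 had 24 counts in hippocampus 2, 10 in cortex 2, 9 in cerebellum 1 and 1 count in each of 4 more libraries. Gad2 had 35 counts in hippocampus 3, 21 in striatum 1, 11 in striatum 3, 6 in hippocampus 1 and 2 in cortex 3, with no count in cerebellum. No library held 10 counts of both. Of the 16 other striatal and GABA neuron genes in the table, 2 were tested and neither passed (edgeR): the interneuron peptides Npy and Sst. Both were highest in hippocampus 1 and 2, at 6.0 and 4.8 CPM for Npy and 10.01 and 15.8 CPM for Sst. In hippocampus 3 both were at 0.311 CPM, below some libraries of other regions.

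The glutamatergic genes Neurod1, Neurod2 and Slc17a7 were near the limit of detection. Neurod1, a transcription factor of granule neurons, had 8 counts in cerebellum 1, 5 in hippocampus 2 and 1 in striatum 1. The related factor Neurod2 had 23 counts in cerebellum 2, 12 in cortex 2, 8 in striatum 3, 4 in hippocampus 2 and 1 in striatum 1. Slc17a7, the vesicular glutamate transporter VGLUT1, had 22 of its 31 counts in cerebellum 3, and 1 and 2 counts in the cortex libraries that held any. Hippocampus 2 had 4 counts and cerebellum 2 had 2. These 3 genes are not taken as limited to the pallium. Of 10 further genes listed for hippocampal and pallial neurons, 3 had no count and 2 were tested, neither of which passed (edgeR). Cux2, a factor of upper cortical layers, had no count in the 6 cortex and striatum libraries, and was at 3.16, 0.369 and 2.25 CPM in hippocampus 1 to 3 and 0.232, 2.19 and 0.239 in cerebellum 1 to 3.

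The cerebellar markers gave the lowest values of all classes. Cbln1, a synapse organizer secreted by cerebellar granule neurons, and Gabra6, a GABA-A receptor subunit of the same neurons, had no count in any of the 12 libraries, the 3 cerebellum libraries included. These zeros allow at most 0.347, 0.234 and 0.359 CPM of either gene in cerebellum 1, 2 and 3. Pcp2, a marker of Purkinje cells, had 6 counts in cortex 2, 5 in striatum 1, 2 in cerebellum 2 and 1 in hippocampus 3. More than that cannot be read from Pcp2, since 51.6% of its exonic length lies under exons of Pet100 on the opposite strand. Such overlap, Pcp2 and Meg3 aside, was at most 6.37% of a member's exons (Ppp1r1b). Of 11 other cerebellar genes, Zic2, En2 and Pvalb had no count in any library. Cbln3 had 21 counts in cortex 1, 6 in striatum 1 and 1 in striatum 3. Calb1 had 25 in cortex 2 and 13 in hippocampus 1, and Car8 had 15 in cortex 3 and 10 in hippocampus 2. Cbln3, Calb1 and Car8 had no count in cerebellum. Itpr1 and Reln, which other cells also express, were the 2 that were tested, and neither passed (edgeR). Itpr1 had 33, 19 and 78 counts in cerebellum 1, 2 and 3, and Reln had none there.

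**Figure D3:**
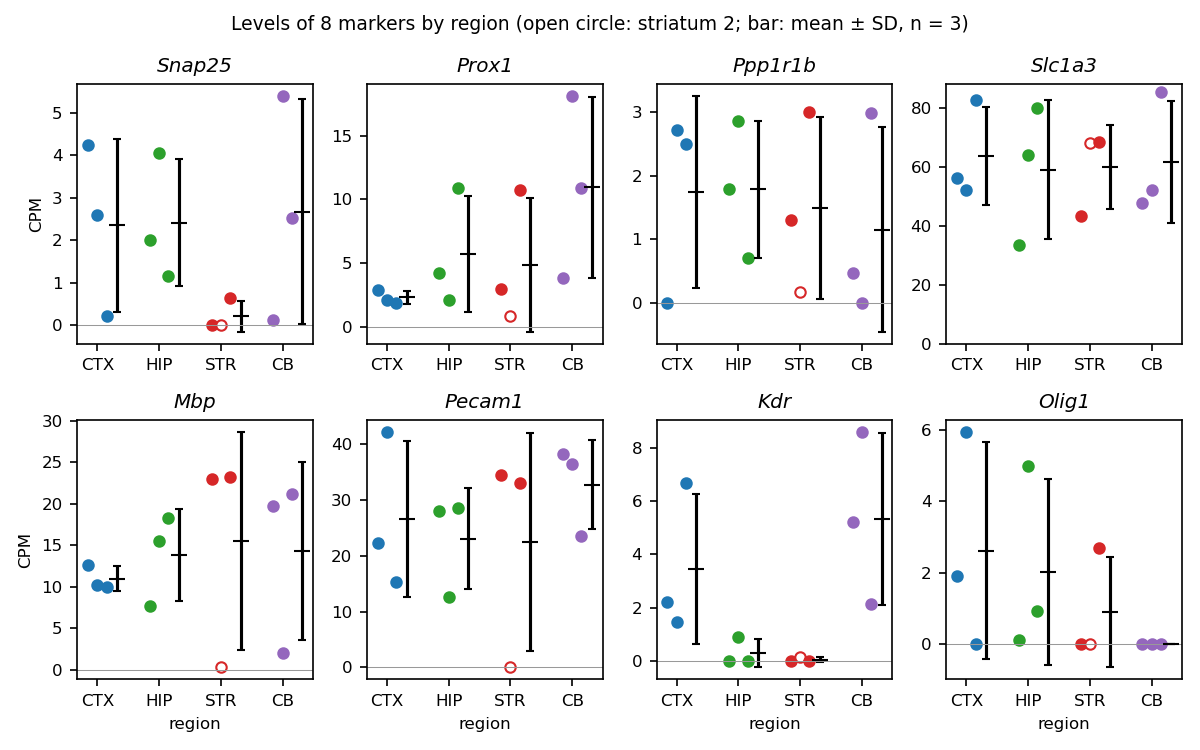
CPM of 8 markers by region (CTX cortex, HIP hippocampus, STR striatum, CB cerebellum), 1 point per library, with the mean and SD of 3 libraries beside them and striatum 2 as an open circle. The Prox1 and Ppp1r1b points of the 4 regions overlap, Slc1a3 is similar in all regions, and Kdr is higher in all cortex and cerebellum libraries (lowest 1.49 CPM) than in hippocampus and striatum (highest 0.923 CPM).

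Among astrocyte markers, Slc1a3 stood apart from the other 4. Slc1a3 (chromosome 15, 8634124 to 8710764, GRCm38) encodes the glutamate transporter GLAST. It was read at 56.3, 52.1 and 82.7 CPM in the cortical libraries, 33.4, 64.0 and 80.1 in the hippocampal, 43.5, 68.0 and 68.5 in the striatal and 47.7, 52.1 and 85.5 in the cerebellar ones. The 12 libraries lay within a 2.56-fold range, the region means were 59.1 to 63.7 CPM, and striatum 2 lay inside it. Its coefficient of variation of 0.269 was below the median of all tested genes, and the test over the 4 regions gave F = 0.03 (edgeR adjusted p = 1.00).

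The other astrocyte markers came and went. Aldoc, the aldolase of astrocytes, was at 11.8, 3.69 and 5.43 CPM in the cortical libraries, 0, 7.38 and 11.03 in the hippocampal, 0, 0.162 and 3.16 in the striatal and 1.04, 2.11 and 7.06 in the cerebellar ones. Gfap, the intermediate filament of astrocytes, was at 2.28, 2.0 and 21.7 CPM in the cortical libraries, 2.74, 8.03 and 1.32 in the hippocampal, 0, 0 and 10.05 in the striatal and 5.44, 3.83 and 8.26 in the cerebellar ones. Neither had a count in striatum 1, which held 43.5 CPM of Slc1a3. Slc1a2, the transporter GLT-1 and an abundant astrocyte protein, had 30 counts in striatum 1, 21 in cortex 1, 17 in hippocampus 2, 4 in cerebellum 2, 1 in each of hippocampus 1 and striatum 3, and none in 6 libraries. The water channel gene Aqp4 had 24 counts in cerebellum 2, 9 in hippocampus 2, 5 in cerebellum 1 and 1 in cortex 3. Of 13 other astrocyte genes, 7 were tested and none passed (edgeR). Gjb6 and Gdf10 had no count in any library, and Ndrg2 was at 65.3 CPM in striatum 2 and 2.05 to 16.4 CPM in the rest. Aldh1l1 was highest in hippocampus 3, at 5.44 CPM, and had no count in 7 libraries.

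In the oligodendrocyte lineage, Mbp was read in every library and the other members were sparse. Mbp encodes myelin basic protein, and the same locus also makes Golli transcripts, which immune cells express, so its count alone does not name a cell. Mbp was at 12.7, 10.3 and 10.02 CPM in the cortical libraries, 7.69, 15.5 and 18.3 in the hippocampal, 22.9, 0.323 and 23.3 in the striatal and 19.8, 2.03 and 21.2 in the cerebellar ones. Striatum 2 (2 counts) and cerebellum 2 were lowest, and the other 10 libraries lay between 7.69 and 23.3 CPM. Mog, a myelin surface protein, had 26 counts in striatum 3, 19 in hippocampus 3, 14 in cerebellum 1, 10 in cortex 3, and 6, 4 and 3 in hippocampus 2, cerebellum 3 and striatum 1. The 2 genes were correlated across the 12 libraries (r = 0.61, permutation p = 0.0156, adjusted p = 0.0482 over 29 pairs, rho = 0.69, adjusted p = 0.0698), with r = 0.64 without the 2 libraries farthest from the median of Mbp.

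Several other transcripts of oligodendrocytes were near 0. Mobp, Cldn11, Opalin and Ugt8a had 1 to 3 counts each over the 12 libraries, against 1763 for Mbp, and Ermn had none. The listed genes Cnp and Mag were read in every library, Cnp at 68.7 to 157 CPM and Mag at 11.5 to 28.1 CPM. Of the 13 other genes of the lineage 3 were tested and none passed (edgeR). The range of Mbp, with striatum 2, was 72.0-fold.

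Olig1 and Olig2 encode the transcription factors of the lineage. Olig1 was at 1.90, 5.95 and 0 CPM in the cortical libraries, 0.105, 4.98 and 0.932 in the hippocampal, and 2.69 CPM in striatum 3 alone of its region. It had no count in the 3 cerebellum libraries. The mean of the other regions, 1.84 CPM, was 18.3-fold a floor of 3 counts over the cerebellum libraries (0.101 CPM). That floor covers counting error only and is no lower bound on the difference. With the spread between libraries, the edgeR 95% interval for cerebellum ran from −13.7 to −0.65 on the log2 scale. Olig1 had an unadjusted p of 0.0340 for cerebellum and did not pass (edgeR adjusted p = 1.00), and striatum 1 and 2 and cortex 3 were at 0 as well. Olig2 had 33 counts in hippocampus 3, 10 in cortex 1, 7 in hippocampus 2, 6 in cerebellum 1, 1 in cortex 3 and none in 7 libraries, striatum among them. Pdgfra, the growth factor receptor of oligodendrocyte precursors, had 89 of its 100 counts in cerebellum 3, a library that held 4 counts of Mog and none of Olig1 or Olig2.

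The endothelial markers did not move together. Pecam1 (chromosome 11, 106654217 to 106750628, GRCm38) encodes the adhesion molecule CD31, which leukocytes carry as well as endothelium. It was at 22.2, 42.2 and 15.2 CPM in the cortical libraries, 28.0, 12.6 and 28.6 in the hippocampal, 34.4, 0 and 32.99 in the striatal and 38.2, 36.5 and 23.6 in the cerebellar ones. Apart from striatum 2, where no count allows at most 0.485 CPM, all libraries lay between 12.6 and 42.2 CPM. Cldn5, the tight junction protein of the blood-brain barrier, had 1 count in all, in hippocampus 2 (0.0923 CPM, exact Poisson 95% interval 0.00234 to 0.514). Tek and Esam, further genes of endothelium, had no count in any library, and Ptprb, Emcn and Abcb1a had 1 to 3 counts each. Other genes of that list went the other way. Cdh5 was above 0 in all 12 libraries, from 1 count in striatum 1 to 77 in hippocampus 3. Itm2a reached 110 counts in striatum 2, and Slco1a4 had 36 in striatum 3.

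Kdr, the VEGF receptor VEGFR2 (chromosome 5, 75932827 to 75978458, GRCm38), was the member with the smallest p over the 4 regions. It was at 2.20, 1.49 and 6.68 CPM in cortex and 5.21, 8.59 and 2.15 in cerebellum. Hippocampus held 0, 0.923 and 0 CPM, and striatum 0, 0.162 and 0. All 6 libraries of the first pair of regions lay above all 6 of the second, a grouping seen after the values. The difference over the 4 regions had an unadjusted p of 0.0190 and did not pass (F = 4.79, edgeR adjusted p = 1.00). On the log2 scale cerebellum stood 3.76 above the mean of the other 3 regions (SE 1.18, unadjusted p = 0.00747, edgeR adjusted p = 1.00), with a 95% interval from 1.20 to 6.33. Striatum stood at −5.04 against the others (SE 1.89, edgeR adjusted p = 0.745). Cldn5 was at 0 in all 6 libraries that held more Kdr. Flt1, which encodes the related receptor VEGFR1, took another course. A single library of each region held most of it: hippocampus 3 had 2.56 CPM, cortex 1 had 2.43, striatum 3 had 1.98 and cerebellum 1 had 1.27. Another 4 libraries held 0.388 CPM or less, and 4 had no count. Of 12 other endothelial genes, 4 were tested and none passed (edgeR). Slc2a1, a glucose transporter that other cells also express, ran from 26.0 to 65.1 CPM, and Vwf reached 10.1 CPM (cerebellum 3) and 6.80 CPM (striatum 3), with 1.11 CPM or less elsewhere.

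Among the 33, the choroid plexus markers Ttr and Enpp2 reached the highest levels in single libraries. The summed level of the class had the widest range, from 0.0759 CPM in cortex 1 to 839 CPM in striatum 2. Medians of Kcnj13, Clic6 and Folr1 were low, at 0.460, 0.209 and 0.0205 CPM per kilobase. Ttr, the carrier of thyroid hormone and retinol in cerebrospinal fluid, was at 579 CPM in striatum 2 (3587 counts, exact Poisson 95% interval 561 to 599 CPM). The other striatum libraries held 35.1 and 87.1 CPM. Outside striatum, Ttr was at 0, 14.9 and 75.5 CPM in the cortical libraries, 0, 43.0 and 0 in the hippocampal and 0.347, 21.3 and 203 in the cerebellar ones. Each region had at least 1 library over 40 CPM, and 3 of the 4 had a library with 3 counts or none. Libraries of every region lay far apart. Striatum was 2.88 above the mean of the other regions on the log2 scale (SE 1.48, edgeR adjusted p = 0.745), and 0.95 without striatum 2 (SE 1.99, adjusted p = 1.00). Without hippocampus 2, which leaves hippocampus with no count of Ttr, it was 6.30.

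Enpp2, the lysophospholipase autotaxin, followed Ttr. Its levels were 0, 5.17 and 36.5 CPM in the cortical libraries, 0, 8.86 and 1.16 in the hippocampal, 5.20, 158 and 23.3 in the striatal and 0, 13.3 and 67.9 in the cerebellar ones. In the 8 libraries with at least 10 counts of Ttr, there were 0.148 (striatum 1) to 0.626 (cerebellum 2) counts of Enpp2 per count of Ttr, with 0.273 in striatum 2 and 0.268 in striatum 3. Clic6, a chloride channel protein, was at 40.1 CPM in striatum 2, 16.4 in cerebellum 3, 13.2 in striatum 3, 3.43 in striatum 1, 2.65 in cortex 2 and 1.57 in hippocampus 2. The other 6 libraries had no count. Folr1, the folate receptor of the choroid plexus, was at 21.5 CPM in striatum 2, 2.99 in cerebellum 3, 2.92 in cortex 3, 1.19 in striatum 3, 1.11 in hippocampus 2 and 0.0647 in cortex 2, with no count in the other 6. Kcnj13, the potassium channel Kir7.1, was at 40.2 CPM in striatum 2, 4.91 in cerebellum 3 and 1.35 CPM or less in the rest. Its gene lies within Gigyf2 on the opposite strand, without a shared exon.

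The 5 genes tended to be high in the same libraries. Across the 12 libraries, Pearson correlations of log2 CPM for the 10 pairs ran from 0.61 to 0.95, and 9 of the 10 passed (permutation test, 100000 resamples, adjusted over 29 same-class pairs of members with counts in at least 6 libraries; Ttr with Kcnj13, adjusted p = 0.0728, did not). Ttr and Enpp2 had r = 0.95 (permutation p = 3e-05, adjusted p = 0.00087) and rho = 0.94 (adjusted p = 0.00087). Without the 2 libraries farthest from the median of Ttr r was 0.91, without striatum 2 it was 0.94, and within the 8 libraries with at least 10 Ttr counts it was 0.93. By rho, 4 of the 10 pairs passed, with values from 0.54 to 0.94. Kcnj13 with Folr1 went from r = 0.73 to 0.12 without the 2 farthest libraries, and Folr1 with Clic6 from 0.68 to 0.31, so those relations rest on these libraries. The 19 pairs within the other classes had a median r of 0.20, and 2 of them passed by r: Mbp with Mog, and Aldoc with Slc1a3. The latter had r = 0.69 (permutation p = 0.0137, adjusted p = 0.0482), and 0.32 without the 2 farthest libraries. By rho neither pair passed (permutation test, adjusted p = 0.0698 for Mbp with Mog and 0.107 for Aldoc with Slc1a3). Points share the library, its depth and its losses of genes, and no test compared the classes.

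**Figure D4:**
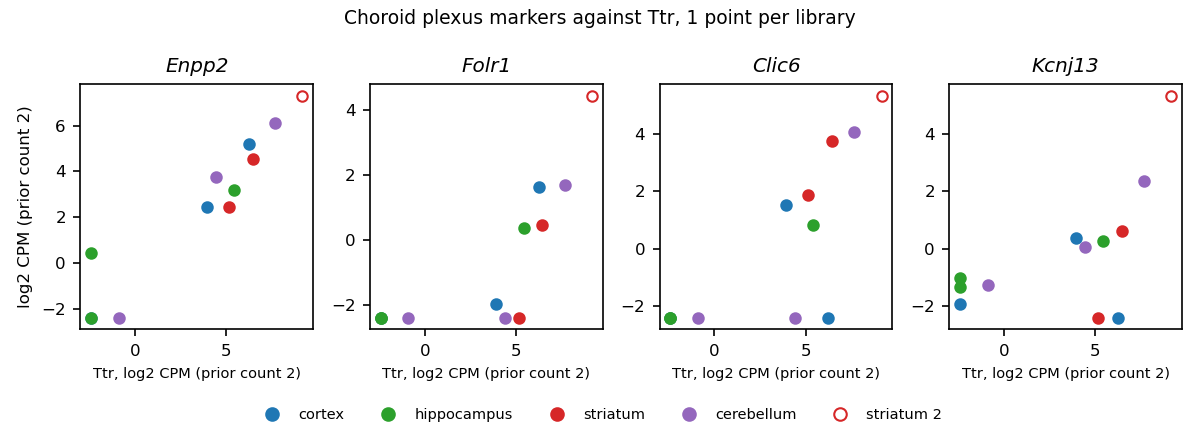
Log2 CPM (prior count 2) of Enpp2, Folr1, Clic6 and Kcnj13 against that of Ttr, 1 point per library coloured by region, with striatum 2 as an open circle; points at the bottom or left edge have no count. Enpp2 is higher where Ttr is higher (r = 0.95), and striatum 2 is the highest point in every panel.

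The striatal differences of this class were smaller without striatum 2. Kcnj13 was 4.19 above the mean of the other regions on the log2 scale (SE 1.37) and Folr1 3.38 (SE 1.80), and without striatum 2 they were at −0.12 and −0.24. For Enpp2 the value went from 2.52 (SE 1.41) to 0.41, and for Clic6 from 3.77 (SE 1.61) to 2.59. Other libraries moved Clic6 and Folr1 upward: without cerebellum 3, which leaves cerebellum with no count of either, the values were 6.73 and 5.53. Clic6 was also at 5.84 without cortex 2 and 5.61 without hippocampus 2, each of which leaves its region at 0, and Folr1 was at 5.06 without hippocampus 2. None passed with or without it (edgeR, adjusted p = 0.745 to 0.749 with it and 1.00 without). The summed level of the 5 members was 839 CPM in striatum 2, 295 in cerebellum 3, 126 in striatum 3 and 115 in cortex 3, and at most 1.48 CPM in cortex 1, hippocampus 1, hippocampus 3 and cerebellum 1.

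Of 10 other choroid plexus genes, 5 were tested and none passed (edgeR). In striatum 2, 1500015O10Rik was at 55.9 CPM, Kl, the co-receptor klotho, at 28.9 and the homeobox factor Otx2 at 22.0. Elsewhere these 3 genes stayed at or under 4.43 CPM, the level of Otx2 in cerebellum 3. The class was not uniform in striatum 2: Aqp1, Sostdc1, Slc4a5 and F5 had no count there, Calml4 had 1, and Prlr had none in any library. Ependymal markers, of cells that line the ventricles beside the choroid plexus, summed to at most 6.78 CPM, in striatum 2, where Foxj1 had 41 counts. Whether the loss of genes in striatum 2 and its high choroid plexus level are related was not tested.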

How the data were processed

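Whole-number read counts per gene symbol, not normalized, were deposited by the authors for 12 libraries. Per the labels' protocols, cDNA of 3000 sorted cells was amplified over 9 cycles by Smart-Seq v4, and 380 pg of it was made into Nextera XT libraries (13 cycles). Neither kit keeps strand. Per the submitters' processing notes, the tools were STAR 2.5.3a, Trim Galore 0.4.3, HTSeq and Picard, on mm10. Their roles, the strand setting and the annotation were not given in the sources used here.

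Counts were analysed with edgeR 4.0.16 in R 4.3.3: filterByExpr with the 4 regions as groups (at least 10 counts in a library, 15 in total), TMM scaling, and a robust quasi-likelihood fit with a mean per region over all 12 libraries. P-values were adjusted by Benjamini-Hochberg across every gene tested, with a threshold of 0.05. The 4 contrasts of a region with the mean of the others share libraries. DESeq2 1.42.0, limma-voom (limma 3.58.1), other scalings, no filter, the replicate number as a block and leaving out each library were alternatives, and the fits were tested on simulated counts. Gene models and exon lengths are those of GENCODE M21 (GRCm38). Levels per library were given for members with at least 10 counts in a library, and 2 genes per list of other markers were named by the smallest p over the 4 regions. Some genes of these lists are not reported here, and further genes were named after their values were seen. The members, lists and tests were chosen with earlier results of these data known.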

Additional observations from a re-analysis of the deposited data

How the results depend on the processing

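No member was called under any alternative: edgeR with DESeq2 size factors, no filter on low counts, DESeq2, limma-voom, the replicate number as a block, or leaving out each of the 12 libraries in turn. Over all genes the main count was 0 in each of the 5 comparisons. DESeq2 called 5 genes over the 4 regions, 7 for cortex, 2 for striatum and 2 for cerebellum, and the fits that left out a library called 0 to 1 for striatum (1 without cerebellum 3) and 0 for the others. With the replicate block 0 genes were called. The labels do not say what a shared replicate number stands for. Deviations from the region means correlated at −0.12 to 0.29 in 18 same-numbered pairs, 4 of them over 0.1 (all 3 of cortex with cerebellum among these), and 9 of 12 libraries correlated best with their own number, a hint from the data and not part of the design. Among 12 log2 differences printed, those of Prox1 in hippocampus (−0.65 to 0.66), Ppp1r1b in striatum (−1.03 to 0.74, with the sign turned in 6 of 12), Kcnj13 (−0.12 to 5.16) and Folr1 (−0.24 to 5.53) changed sign when a library was left out, Ppp1r1b also in limma-voom (0.66). Meg3 in striatum, checked after the values were seen, ranged from −1.92 to −0.64. The other 8 kept their sign under these alternatives. The cause was not tested. With detection at 10 counts or more, 10 of 33 members left the 95% binomial interval of their number of libraries, and with 3 counts 2 did. Depth limits the zeros: 3 counts are 0.194 to 0.485 CPM.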

Other observations

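Lists of cells that are not among the 33 markers gave sporadic values of the same kind. Cd79a, a gene of B cells, had 281 counts in striatum 1 and 126 in cerebellum 2, whereas Ms4a1, which encodes the B cell marker CD20, and the T cell genes Cd3e and Cd3d had no count in any library. Alas2, the haem synthesis enzyme of red cell precursors, had 231 counts in cortex 2 and none in striatum 2. Border-associated macrophage genes summed to 255 to 857 CPM, with all 7 tested and none called (edgeR). Most of each sum was Mrc1, with 3326 of 3646 counts in cortex 1. Of the 7 genes, 3 were above 0 in all 12 libraries, while Cd163, Lyve1, Pf4 and Ms4a7 had no count in some. Of 12 mural and fibroblast genes, 4 stayed under 10 counts in every library, and Tagln was highest in striatum 2, at 113 counts. Erythroid genes summed to 15.7 CPM at most, in cortex 2.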
